A study of Mus musculus with 7 samples.

Results

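The data described here are the transcript levels of 8 genes of the Notch pathway in sorted type 2 innate lymphoid cells (ILC2s) of the mouse heart. The 8 genes were picked by symbol from the 55335 genes of the deposited tables: the ligand gene Jag1, the receptor genes Notch1 and Notch2, the protease gene Adam10, the nuclear factor genes Rbpj and Maml1, and the target genes Hes1 and Dtx1. All 8 were found, and all 8 were among the 17015 genes that passed the filter on low counts. They were chosen when the difference between naive and allograft libraries was already known. The differences of these 8 genes between the groups are therefore given as a description, with no test.

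The study compared ILC2s of naive hearts (3 libraries) with ILC2s that had infiltrated heart grafts (4 libraries). In the graft group, hearts of Balb/C mice were transplanted into C57BL/6 (B6) mice, a combination that undergoes acute rejection, and were taken 7 days later. All cells were sorted by flow cytometry as CD45+ Lineage- ST2+ cells, and each library pooled cells from 4 to 7 hearts, so that the pool was the replicate and p-values measure the spread between pools. The strain of the naive hearts and the age and sex of the animals were not given in the sources used here, all libraries carry the same 7-day label, and no syngeneic or other transplanted control was analysed here. Where a group's values are listed, they follow its replicate numbers. Library totals ran from 29107326 to 53044907 counts. A count of 0 allowed at most 3 counts, or 0.0566 to 0.103 CPM (a gene's counts scaled to the library total), and this limit covers counting error only.

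Notch receptors are cell-surface proteins that are activated by Jagged and Delta-like ligands on a neighbouring cell. The metalloprotease ADAM10 and then the gamma-secretase complex cut the bound receptor, and its intracellular part moves to the nucleus, where it joins the DNA-binding protein RBPJ and a Mastermind coactivator such as MAML1. The best-known target is Hes1, a basic helix-loop-helix repressor. In lymphocytes Notch signals are required for T cell commitment, and they also act in ILC2 development and in the choice between innate lymphoid programmes.

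The labelled cell type was checked with 11 ILC2 markers, among them Il1rl1 (which encodes ST2), Gata3, Rora and Il7r. Their summed level was 11109 CPM in naive replicate 1, 1152 CPM in naive replicate 2 and 14956 CPM in naive replicate 3, and it lay between 11322 and 12072 CPM in the allografts. Naive replicate 2 stood apart from the other libraries. In it, 10 kidney tubule markers summed to 10699 CPM (59.3 to 287 CPM in the other libraries), 9 endothelial markers to 537 CPM (17.6 to 53.9 CPM) and 6 mural cell markers to 459 CPM (3.12 to 16.3 CPM). Cardiomyocyte markers summed to at most 9.22 CPM in any library. Values are given below for all libraries and, where it matters, without naive replicate 2. In pooled RNA, fewer cells of a type and less RNA per cell cannot be told apart.

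Of the 8 genes, Hes1 and Dtx1 had groups that did not overlap. Hes1 was lower in every allograft library than in every naive library, and Dtx1 was found in the allograft libraries alone. Over all genes tested, every allograft library lay below every naive library for 2.15% of genes and above for 12.5%, and nothing is read from the members' count, since they were chosen on this contrast. The same 2 genes stood apart with CPM scaled by TMM factors (trimmed mean of M values, 10.5% above and 3.19% below) and with FPKM (12% above and 2.34% below), which is a level per kilobase of gene length. Without naive replicate 2, Notch2 joined them as a gene lower in the allografts, against a background of 7.49% below and 21.6% above. For the other members the libraries of the groups were interleaved.

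**Figure D1:**
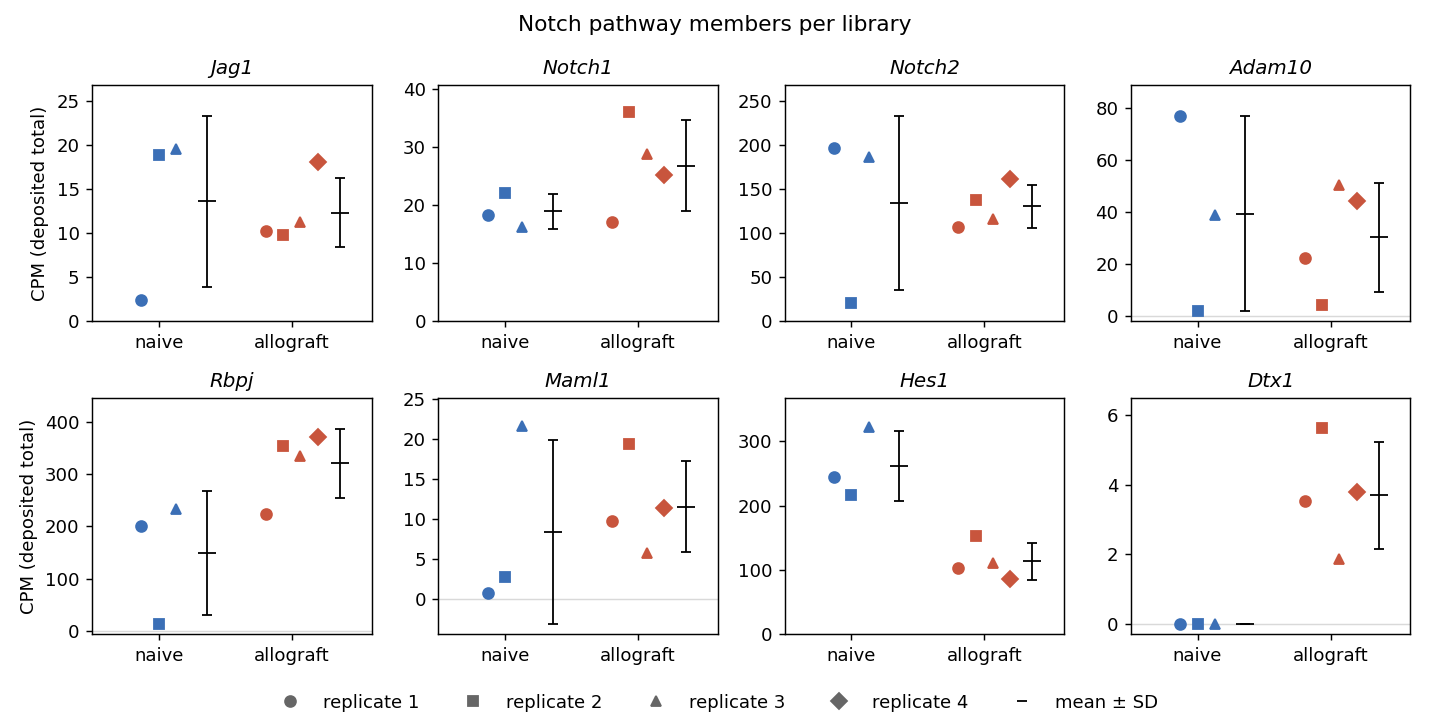
Level of each of the 8 genes in every library, in CPM of the deposited total, with the 3 naive libraries in blue, the 4 allograft libraries in red, marker shapes for replicate numbers, and the mean with its SD in black. The Hes1 points of the allografts (86.0 to 153 CPM) lie below all naive points (217 to 323 CPM), the Dtx1 points of the naive libraries lie at 0, and naive replicate 2 is the lowest point for Notch2, Adam10 and Rbpj.

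Hes1 (ENSMUSG00000022528, chromosome 16, 30064384 to 30067796, plus strand, GRCm38) was the most abundant of the 8 transcripts per gene length. Its level was 245, 217 and 323 CPM in the naive hearts, from 12985, 9864 and 14063 counts. In allograft replicates 1 to 4 it was 103, 153, 111 and 86.0 CPM, from 4531, 4971, 4538 and 2504 counts. The lowest naive library thus held 1.41 times the CPM of the highest allograft library. Hes1 averaged 261 ± 54.8 CPM in the naive group (SD, n = 3) and 113 ± 28.7 CPM in the allograft group (SD, n = 4), a ratio of 2.31. The fitted log2 fold change of Hes1, allograft over naive, was -1.41 (SE 0.31), and -1.38 (SE 0.28) without naive replicate 2. Over the 14 alternative fits it ran from -1.63 to -1.24, so that its sign was the same in each of them.

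The level of Hes1 in naive replicate 2 did not follow the ILC2 markers. Relative to Gata3 in the same library, Hes1 stood at 0.374, 6.22 and 0.333 CPM per CPM in the naive and at 0.136, 0.200, 0.157 and 0.0982 in the allografts. Naive replicate 2 was therefore far above the other libraries by this ratio, while the remaining naive libraries lay above all allografts. Per 1000 CPM of the 11 ILC2 markers, Hes1 had 22.0, 188 and 21.6 CPM in the naive group and 7.60 to 13.1 CPM in the allografts. Notch2 by the same measure had 17.7, 17.4 and 12.4 CPM in the naive group and 8.85 to 14.2 CPM in the allografts, so that it stayed in proportion to the ILC2 markers in naive replicate 2. The part of the kidney, endothelial or mural transcripts of naive replicate 2 in its Hes1 level was not tested. Without that library the Hes1 groups still did not overlap.

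Genes that respond to tissue dissociation were also measured, because Hes1 is transcribed quickly after many stimuli. All 14 such genes, among them Fos, Jun and Egr1, were detected in every library. Their sum was 11375, 10637 and 42862 CPM in the naive group and 14147 to 18867 CPM in the allografts. The allograft sums lay between those of the naive libraries, but the single genes did not share a pattern. Egr1, like Hes1, was lower in every allograft (94.7 to 134 CPM) than in every naive library (153, 894 and 501 CPM). Jun had 507, 396 and 958 CPM in the naive group and 661 to 900 CPM in the allografts. Fos had 2044, 3216 and 8410 CPM in the naive group and 1917 to 2595 CPM in the allografts. Naive replicate 3 had both the highest sum and the highest Hes1 level, and the part of dissociation in the Hes1 level was not tested.

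**Figure D2:**
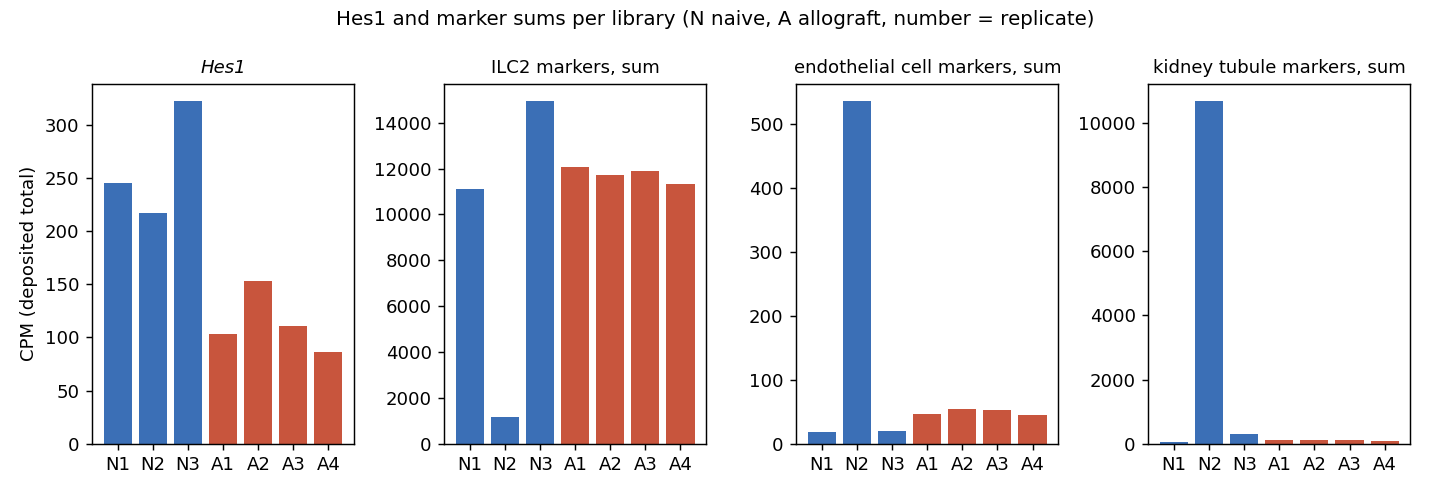
Hes1 and the summed ILC2, endothelial and kidney tubule markers in each library, in CPM, with naive libraries N1 to N3 in blue and allograft libraries A1 to A4 in red. Hes1 is high in all 3 naive libraries, although the ILC2 sum of N2 is 1152 CPM and its kidney tubule sum 10699 CPM.

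Dtx1 (ENSMUSG00000029603, chromosome 5, 120680202 to 120711927, minus strand) encodes Deltex 1, an E3 ubiquitin ligase that binds the intracellular part of Notch and is itself induced by Notch signals. It had 0 counts in each naive library. In allograft replicates 1 to 4 it had 155, 182, 76 and 110 counts, or 3.52, 5.62, 1.86 and 3.78 CPM. The allograft mean of 3.69 ± 1.54 CPM (SD, n = 4) was 57.9 times a floor of 3 counts per naive library. Among the 8 genes this was the lowest mean level per gene length. The bound rests on few reads and covers counting error only. Dtx1 passed the filter on low counts only through the allografts. Genes with counts numbered 15820, 20254 and 13864 in the naive and 19235 to 21354 in the allograft libraries. The part of this difference in the naive counts of 0 was not tested. B cell markers were measured beside it. The sum of 7 B cell markers was 117, 24.2 and 0 CPM in the naive group and 92.4 to 151 CPM in the allografts. Of the 7, 5 were at 0 in naive replicate 1, 2 in naive replicate 2 and all 7 in naive replicate 3. The 7 did not share a direction. Ms4a1 (CD20) was at 0 in all naive libraries and had 13.6 to 34.1 CPM in the allografts, and Pax5 was at 0 in all naive libraries and in allograft replicate 3. Cd79b was highest in naive replicate 1, at 117 CPM against 34.6 to 47.7 CPM in the allografts, and Ebf1 was highest in naive replicate 2, at 18.0 CPM against 2.40 to 4.50 CPM. The part of B cell RNA in the Dtx1 level was not tested.

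The receptor genes differed in abundance and in how steady they were. Notch2 (ENSMUSG00000027878, chromosome 3, 98013527 to 98150361, plus strand) had 197, 20.1 and 186 CPM in the naive hearts. In the allografts it had 107, 137, 116 and 161 CPM. Naive replicate 2 was thus lower than every allograft and the remaining naive libraries were higher than every allograft. The fitted log2 fold change of Notch2 was -0.100 (SE 0.60) over all libraries and -0.60 (SE 0.23) without naive replicate 2. Leaving out either of the other naive libraries turned it to 0.22. The annotation places a pair of gene models, with at most 13.3 and 24.1 CPM, inside Notch2 on the same strand, and how reads were divided between them was not given in the sources used here.

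Notch1 (ENSMUSG00000026923, chromosome 2, 26457903 to 26516663, minus strand) had 18.4, 22.2 and 16.3 CPM in the naive and 17.1, 36.01, 28.8 and 25.1 CPM in the allograft libraries. Allograft replicate 1 lay among the naive libraries and the other 3 allografts lay above them. Its fitted log2 fold change was 0.23 (SE 0.46), and with DESeq2 size factors it was -0.010, and that scaling shifted the median over all tested genes from -0.014 to -0.20. Unlike Notch2, Notch1 did not drop in naive replicate 2. Per gene length, the Notch2 level was 14.1, 1.20 and 15.1 times the Notch1 level in naive replicates 1 to 3, and 8.25, 5.05, 5.33 and 8.49 times in the allografts (ratio of FPKM). The allograft ratios therefore lay between that of naive replicate 2 and those of the other naive libraries.

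The ligand gene Jag1 (ENSMUSG00000027276, chromosome 2, 137081456 to 137116644, minus strand) encodes Jagged 1. Its level was 2.43, 18.9 and 19.6 CPM in the naive and 10.2, 9.78, 11.3 and 18.1 CPM in the allograft libraries. All allografts lay within the range of the naive libraries, of which naive replicate 1 was low. The fitted log2 fold change of -0.46 (SE 0.82) became 0.093 (SE 0.85) without naive replicate 2.

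Adam10 (ENSMUSG00000054693, chromosome 9, 70678997 to 70780229, plus strand) encodes the protease that makes the ligand-dependent cut. It had 77.1, 1.89 and 38.7 CPM in the naive and 22.4, 4.23, 50.3 and 44.0 CPM in the allograft libraries. It varied more than any other member within the allografts, with a coefficient of variation of 69.7%, and allograft replicate 2 was as low as 137 counts. Leaving out naive replicate 1 turned its fitted log2 fold change from -0.40 (SE 1.08) to 0.48, and without naive replicate 2 it was -0.98 (SE 0.86).

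Rbpj (ENSMUSG00000039191, chromosome 5, 53466152 to 53657362, plus strand) encodes the factor that carries all canonical Notch signals to DNA, and that represses the same targets when no Notch fragment is bound. Its level was 201, 12.7 and 233 CPM in the naive and 224, 354, 335 and 371 CPM in the allograft libraries. Allografts 2 to 4 lay above all naive libraries, and allograft replicate 1 lay just below naive replicate 3. The fitted log2 fold change was 1.06 (SE 0.75) with all libraries and 0.51 (SE 0.26) without naive replicate 2. Its sign was the same in all 14 alternative fits. The ratio of Hes1 to Rbpj, both in FPKM, was 7.63, 107 and 8.66 in the naive group and 2.88, 2.72, 2.07 and 1.45 in the allografts, so that these ranges did not overlap.

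Maml1 (ENSMUSG00000050567, chromosome 11, 50255634 to 50292311, minus strand) had 0.716, 2.68 and 21.6 CPM in the naive and 9.70, 19.3, 5.68 and 11.4 CPM in the allograft libraries. Naive replicate 3 exceeded every allograft and the other naive libraries were below them all. Its fitted log2 fold change of 0.34 (SE 1.11) became 2.31 (SE 0.97) without naive replicate 3 and -0.031 without naive replicate 2.

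**Figure D3:**
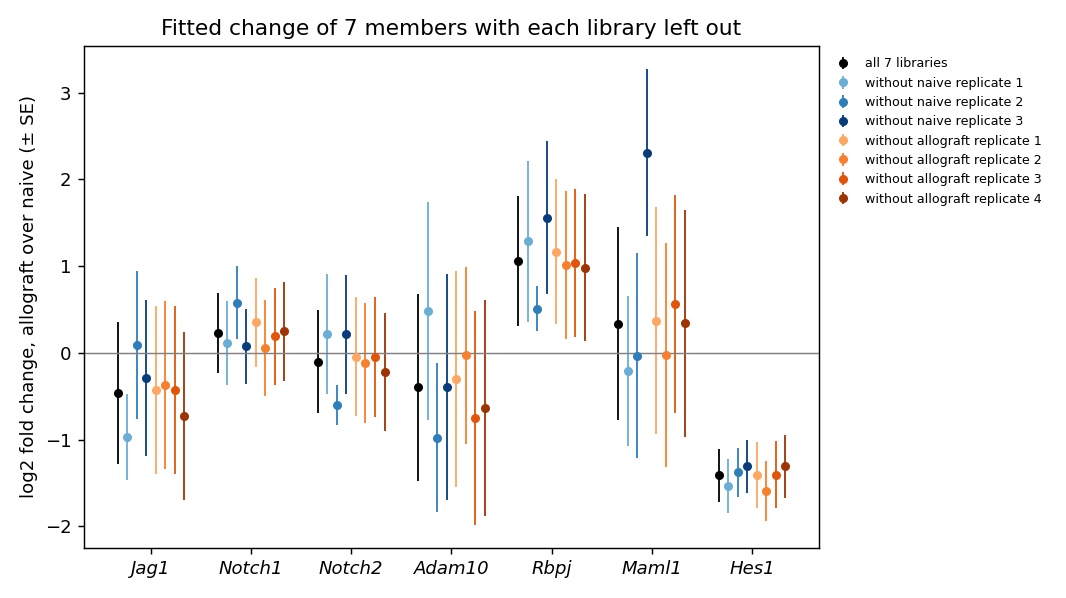
Fitted log2 fold change (allograft over naive, with SE) of 7 of the 8 genes over all libraries in black and with each library left out in turn, naive in blue and allograft in orange. Dtx1 is not drawn because its fold is a bound. Hes1 stays between -1.59 and -1.31, Rbpj stays above 0, and the points of Jag1, Notch2, Adam10 and Maml1 cross 0.

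The members differed in how steady their levels were within a group. Within the naive libraries the coefficient of variation of the CPM was 15.8% for Notch1 and 21.0% for Hes1, and it was 71.2% for Jag1, 73.8% for Notch2, 80.0% for Rbpj, 95.8% for Adam10 and 138% for Maml1. Without naive replicate 2 it was 3.97% for Notch2 and 10.6% for Rbpj, over 2 libraries. Within the allografts it ran from 18.5% for Notch2 to 69.7% for Adam10. Over the 8 genes the median fitted log2 fold change was 0.066, also with Dtx1 at its bound, with 4 genes fitted higher and 4 lower, beside -0.014 over all 17015 genes.

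Levels of different genes can be compared per gene length. In naive libraries the order by mean FPKM was Hes1 at 114 ± 22.6 (SD, n = 3), Notch2 at 10.98 ± 8.04, Rbpj at 10.3 ± 8.21, Adam10 at 7.02 ± 6.70, Jag1 at 2.10 ± 1.51, Maml1 at 1.33 ± 1.84, Notch1 at 1.19 ± 0.214 and Dtx1 at 0. The ranges of Hes1 and Notch2 did not overlap, and those of each further neighbour down to Notch1 did. In allografts it was Hes1 at 48.1 ± 12.2 FPKM (SD, n = 4), Rbpj at 21.8 ± 4.55, Notch2 at 10.5 ± 1.96, Adam10 at 5.33 ± 3.73, Jag1 at 1.83 ± 0.577, Maml1 at 1.80 ± 0.896, Notch1 at 1.63 ± 0.482 and Dtx1 at 0.599 ± 0.249. There the ranges were apart between Hes1 and Rbpj, between Rbpj and Notch2, and between Notch1 and Dtx1. From Notch2 down to Notch1, neighbours could not be ordered beyond their spread. Hes1 was above every other member in each of the 7 libraries.

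**Figure D4:**
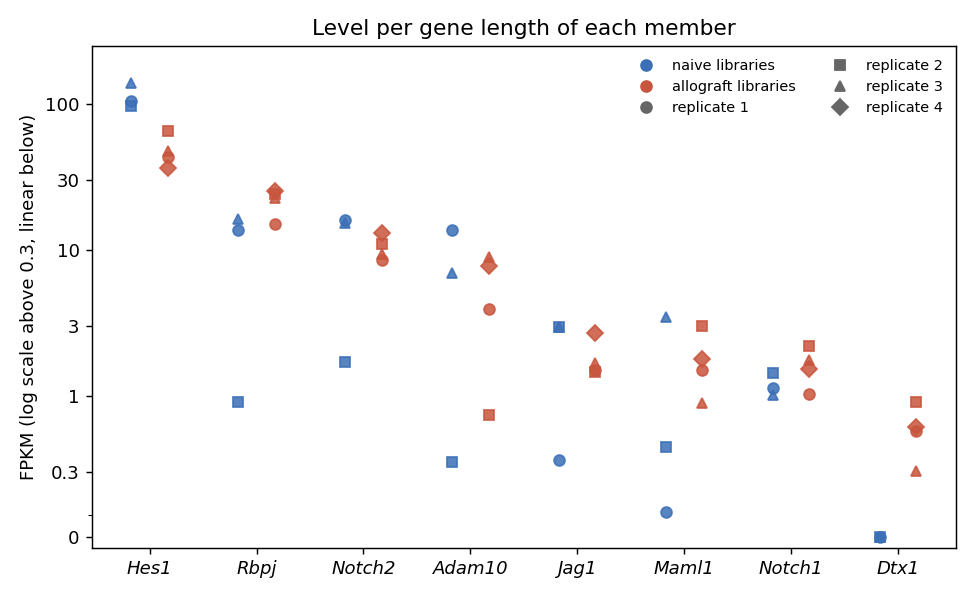
Level per gene length (FPKM, on a log scale above 0.3 and a linear scale below) of the 8 genes in each library, naive in blue and allograft in red, ordered by the allograft mean. Hes1 is highest in every library, at 97.6 to 140 FPKM in naive and 36.6 to 65.2 FPKM in allograft libraries, and Dtx1 has the lowest mean in both groups.

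The binding core of RBPJ was looked for in the promoters of these genes, to show which of them carry those letters next to an annotated start of transcription. RefSeq promoter sequences of GRCm38.p6 were matched for 7 of the 8 genes by symbol, in 8 windows, and Hes1 was the other gene. For Rbpj (start sites 53590346 and 53590486) and Notch1 (26503822), the start sites used lay well inside the gene spans given above. Their windows are therefore not those of the outermost annotated start. In the 250 bases before the start, the core TGGGAA was present on either strand in 2 of the 8 windows, both of Rbpj, where 21.6% of all 32851 promoter windows hold it. In the upstream Rbpj window it began 149 and 65 bases before the start site. The Rbpj windows overlap, and the match at 65 bases is also the match of the other window, 205 bases before its start site. That site was thus counted in both windows. The site bound by HES proteins known as the N-box (CACNAG on either strand, which shares no sequence with the RBPJ core) was present in 3 of the 8 windows, those of Notch1, Notch2 and Dtx1, where 36.7% of all windows hold it. A match describes the letters of the sequence and is not a measured binding site. The Rbpj stretch is shown because Rbpj was the only gene with the core among the 7 members searched, which left out Hes1. The Hes5 stretch is shown because Hes5 is a classical Notch target of the HES family that had 0 counts in all 7 libraries. Capitals mark the core or its reverse complement, and both stretches lie on the plus strand.
Rbpj, chr5:53590096-53590213: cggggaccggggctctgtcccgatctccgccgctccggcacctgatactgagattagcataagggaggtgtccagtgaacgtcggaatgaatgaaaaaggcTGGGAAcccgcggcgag
Hes5, chr4:154960673-154960922: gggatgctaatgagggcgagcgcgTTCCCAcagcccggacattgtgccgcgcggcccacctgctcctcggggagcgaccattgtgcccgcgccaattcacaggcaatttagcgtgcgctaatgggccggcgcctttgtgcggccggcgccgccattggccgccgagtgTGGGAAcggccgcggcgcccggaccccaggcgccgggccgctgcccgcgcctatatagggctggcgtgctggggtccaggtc
The Rbpj stretch ends where an annotated first exon begins, 133 bases before the start site used for the window. The Hes5 stretch ends at the base before its start site and holds the core 226 and 82 bases before it.

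The wider pathway was described with a list of 71 other genes in 9 groups by role, of which 61 passed the filter on low counts. In the edgeR quasi-likelihood test with Benjamini-Hochberg adjustment over all 17015 genes, 0 of the 61 passed at 0.05 in either direction, beside 0.0294% of all genes higher and 0.00588% lower. Before adjustment, 2 genes had a p under 0.05 and were higher in allografts (Dtx3 and Tcf7), and 2 were lower (Mib1 and Ctbp2), beside 6.41% and 3.86% of all genes. DESeq2's test called Dtx3 and Tcf7 higher and Ctbp2 lower, beside 6.40% of all genes called in either direction. Of the 61 genes, 30 were fitted higher and 31 lower, and the median log2 fold change of -0.056 stood beside the -0.014 of all tested genes. In CPM of the deposited total, the groups did not overlap for 8 genes higher and 1 lower in allografts, beside 12.5% and 2.15% of all genes. The 8 were Rfng, Psen2, Aph1a, Itch, Dtx3, Maml2, Ep300 and Tcf7, and the other was Ctbp2. This overlap takes no account of TMM factors. Scaling by them raises naive replicate 2 (factor 0.724) relative to the allografts (1.05 to 1.07). With that scaling the groups of Rfng and Maml2 overlapped. Without naive replicate 2, 2 genes passed (Jag2 and Notch3), beside 3.10% of all genes. Both had 0 counts in the remaining naive libraries and passed the filter on low counts only through the allografts, so nothing is read from their calls.

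The other ligand and receptor genes were found at low levels or in few libraries. Dll3 had 0 counts in every library. Dll4, a ligand typical of endothelium and thymus, had 418 counts in naive replicate 2, 3 counts in allograft replicate 4 and 0 in the remaining libraries, and the endothelial marker sum was highest in the same naive replicate 2. Jag2 had 5.98 CPM in naive replicate 2, 0 counts in the other naive libraries and 1.41 to 3.09 CPM in the allografts. Notch3, the receptor of mural cells, had 5.39 CPM in naive replicate 2, 0 counts in the other naive libraries and 1.73 to 5.46 CPM in the allografts. Over all libraries the fitted log2 fold change was -0.38 (SE 2.18) for Jag2 and 0.079 (SE 2.20) for Notch3. Only without naive replicate 2 could a floor of 3 counts per library be set, and the allograft means were 36.5 and 45.1 times it. Nothing is read from these multiples, since in that fit both genes passed the filter on low counts only through the allografts. Notch4, an endothelial receptor, had 1.62, 5.82 and 16.8 CPM in the naive group and 3.30 to 4.91 CPM in allografts, so that its naive mean rested on naive replicate 3. Dll1 had at most 7.35 CPM in any library.

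Genes for receptor maturation and cleavage were mostly expressed in both groups. The convertase gene Furin, which makes the maturing cut in Notch, had 224, 9.41 and 421 CPM in the naive group and 381 to 581 CPM in the allografts (log2 fold change 1.12, SE 0.90, and 0.55 without naive replicate 2). The fringe gene Rfng averaged 16.5 ± 8.65 CPM in the naive group (SD, n = 3) and 27.4 ± 3.37 CPM in the allograft group (SD, n = 4). Its groups did not overlap in CPM of the deposited total, and its log2 fold change was 0.46 (SE 0.56). Poglut1, which adds glucose to the receptor, had 21.8, 9.08 and 55.6 CPM in the naive and 9.97 to 17.8 CPM in the allograft libraries. Its log2 fold change was -1.05 (SE 0.59), and -0.22 without naive replicate 3. Among the subunits of gamma-secretase, Psen2 had 149, 19.5 and 75.4 CPM in the naive and 155 to 175 CPM in the allograft libraries, so that every allograft lay above every naive library. Aph1a had 0.226, 1.80 and 0 CPM in the naive and 4.94 to 7.64 CPM in the allograft libraries. Ncstn was even, at 51.0 ± 12.3 CPM in naive (SD, n = 3) and 44.9 ± 4.23 CPM in allograft libraries (SD, n = 4). None of these genes passed the test.

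Among the ubiquitin ligases, Dtx3 and Itch had groups that did not overlap. Itch, which was named after its values were seen, had 4.94, 19.8 and 1.06 CPM in the naive and 29.6, 32.2, 41.5 and 36.3 CPM in the allograft libraries, with a log2 fold change of 1.56 (SE 0.99) and an edgeR adjusted p of 0.709 (range over alternatives 0.0595 to 1.00). Dtx3, a relative of Dtx1, had 19.5, 13.1 and 27.0 CPM in the naive group and 47.5, 57.7, 55.5 and 44.5 CPM in the allografts. Its lowest allograft lay above its highest naive library. The log2 fold change was 1.20 (SE 0.33), with an edgeR adjusted p of 0.243, and over the 14 alternatives the adjusted p ran from 0.00613 (DESeq2) to 1.00. Mib1 and Mib2, which ubiquitinate ligands so that they can signal, were lower on average in the allografts. Mib1 had 76.1, 19.4 and 110 CPM in the naive and 9.47, 47.8, 17.7 and 11.7 CPM in the allograft libraries (log2 fold change -1.76, SE 0.70, edgeR adjusted p = 0.428, range over alternatives 0.146 to 1.00). For Mib2 the naive mean rested on naive replicate 3, with 48.2 CPM against 2.36 and 8.95 CPM in the others, and its log2 fold change of -2.12 (SE 0.98) was -0.61 without that library.

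Among the nuclear cofactors, the coactivator genes Ep300 and Maml2 had groups that did not overlap in CPM. In FPKM the Maml2 groups did overlap, with 0.972 in naive replicate 2 and 0.931 in allograft replicate 1. Ep300 averaged 14.3 ± 4.96 CPM in the naive group (SD, n = 3) and 27.6 ± 7.75 CPM in the allograft group (SD, n = 4), and Maml2 averaged 4.71 ± 2.51 and 11.04 ± 3.92 CPM. Kat2b, a histone acetyltransferase, had a log2 fold change of -0.63 (SE 0.46), and -0.064 without naive replicate 3. The corepressor gene Ctbp2 went the other way. It had 21.5, 12.6 and 29.7 CPM in the naive and 6.88, 5.09, 7.37 and 1.96 CPM in the allograft libraries, with every allograft below every naive library. Its log2 fold change was -2.16 (SE 0.65) with an edgeR adjusted p of 0.2997, and over the alternatives the adjusted p ran from 0.00198 (DESeq2) to 1.00. Ncor1, a corepressor that RBPJ can recruit, had 477, 109 and 698 CPM in the naive and 615 to 931 CPM in the allograft libraries. Tle1 had a log2 fold change of -0.92 (SE 0.58), and -0.33 without naive replicate 3.

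Per gene length, the highest value of another HES or HEY gene in any library was 40.6 FPKM, of Hes6 in naive replicate 1. Hes2 and Hes5 had 0 counts in all 7 libraries, and Hes3 had 6 counts in 1 allograft library. Hey1 had 13.03, 0.989 and 14.1 CPM in the naive and 1.36, 7.53, 11.9 and 6.15 CPM in the allograft libraries. Without naive replicate 2 its groups did not overlap, with a log2 fold change of -1.06 and an edgeR adjusted p of 0.527. In the whole list, 6 genes were then apart as lower and 11 as higher in allografts, beside 7.49% and 21.6% of all genes. Hey2 and Heyl did not exceed 2.59 CPM in any library and were highest in naive replicate 2. Hes6, chosen after its values were seen, had 83.9, 59.0 and 0 CPM in the naive and 37.8 to 54.1 CPM in the allograft libraries, so that Hes6 and Hes1 did not share a pattern in naive replicate 3. Nrarp, a feedback inhibitor that Notch induces in many tissues and that was also chosen after its values were seen, had 1.34, 9.14 and 0 CPM in the naive and 0.587 to 4.50 CPM in the allograft libraries.

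Of the targets known from T cell development, Tcf7 had the highest fold in the list. Its level was 0.943, 0.857 and 4.68 CPM in the naive and 44.4, 21.5, 43.9 and 48.2 CPM in the allograft libraries, with a log2 fold change of 4.06 (SE 0.80) and an edgeR adjusted p of 0.144. Over the 14 alternatives that p ran from 1.33e-05 to 1.00, and Tcf7 passed in 3 of them, DESeq2 and limma on FPKM with either pseudocount. Every allograft lay above every naive library. T cell markers were summed beside it. The sum of 10 T cell markers was 348, 30.4 and 1085 CPM in the naive and 1065 to 1263 CPM in the allograft libraries. In the allografts Trbc1 (481 to 584 CPM), Trbc2 (383 to 481 CPM) and Cd3g (175 to 219 CPM) made up most of the sum. Cd3e did not exceed 1.24 CPM and Cd8a 2.25 CPM in any library. Trac had 7.80, 5.06 and 10.6 CPM in the naive and 12.5 to 19.6 CPM in the allograft libraries. Cd8a and Cd8b1 were at 0 in all naive libraries and were found in some allografts. Other markers went the other way, with Cd3d at 32.5 CPM and Cd4 at 11.6 CPM in naive replicate 3, above every allograft. The part of T cell RNA in the Tcf7 level was not tested. Myc had 112 ± 9.94 CPM in the allografts (SD, n = 4) and 47.3, 8.48 and 117 CPM in the naive libraries. Ccnd1 was highest in naive replicate 2, at 67.4 CPM, and had 1.09 to 12.1 CPM in all other libraries.

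**Figure D5:**
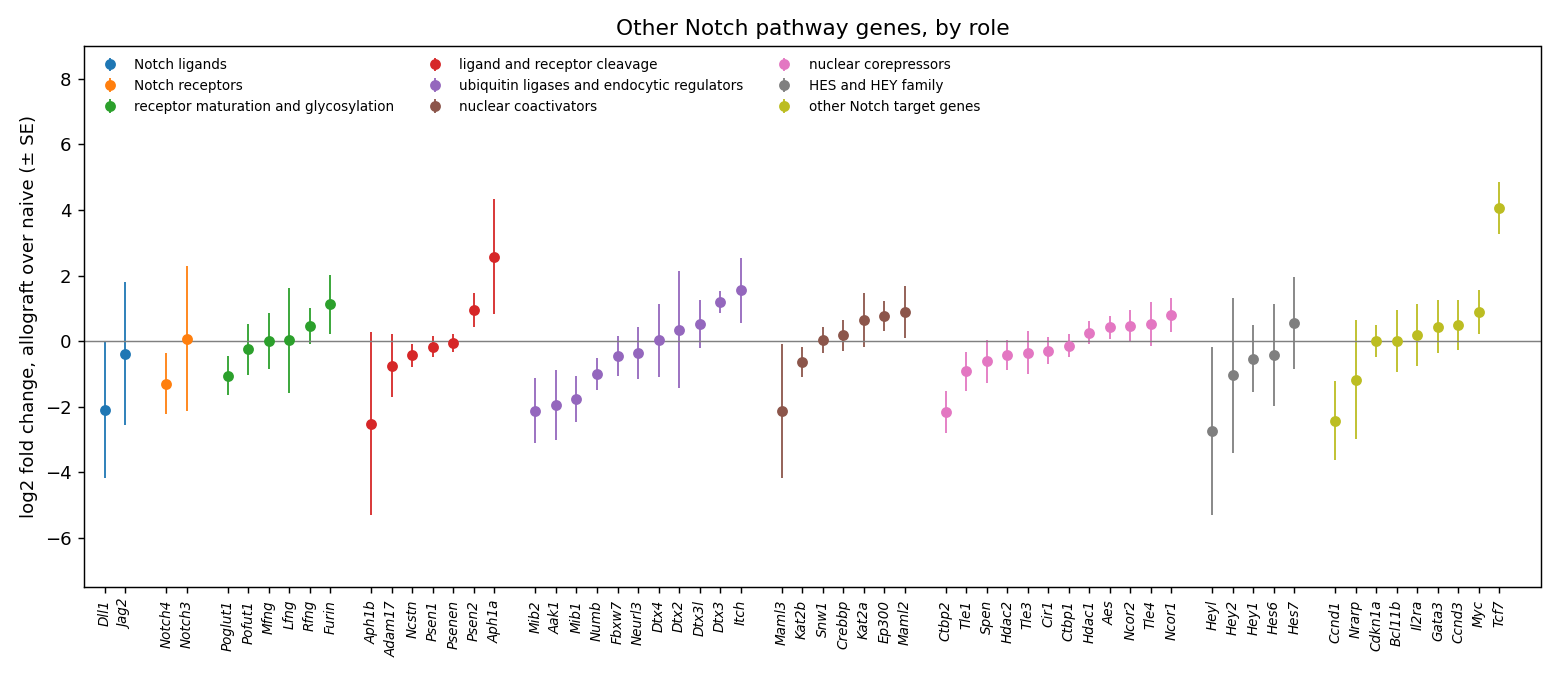
Log2 fold change (allograft over naive, with SE) of the 61 tested genes of the wider pathway, coloured by role and ordered by value within each role. Values lie on both sides of 0 in every role with more than 2 genes, Tcf7 is highest at 4.06, and none of the 61 passed the edgeR test.

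Genes with a pattern like that of Hes1 were ranked by the root mean square difference of log2(CPM + 1), centred on each gene's own mean, among 4938 tested genes with an average log2 CPM of at least 5. Over the 7 libraries the nearest were Socs3 at 0.25, Ctso at 0.27, Nceh1 at 0.28, Dnajb9 at 0.29 and Qdpr at 0.29, where Hes1 itself varied by 0.66 and the median candidate stood at 1.07. Socs3, a feedback inhibitor of cytokine signalling, had 34.3, 40.4 and 52.9 CPM in the naive and 25.2, 26.1, 20.1 and 18.3 CPM in the allograft libraries. Over the 6 libraries without naive replicate 2 the nearest were Nr1d1 at 0.14, Pik3ip1 at 0.19, Krt83 at 0.20, Lactb2 at 0.21 and Psmg2 at 0.21. The lists shared 0 genes, so that the neighbours of Hes1 depended on that library. Nr1d1, a nuclear receptor of the circadian clock, had 43.8, 85.6 and 57.3 CPM in the naive and 16.1, 19.96, 18.6 and 12.9 CPM in the allograft libraries.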

How the data were processed

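RNA of 7 libraries was measured. The authors deposited whole-number counts per gene and FPKM for the same 55335 genes. Per the submitters' processing notes, the build was mm10 and the tools included FastQC 0.11.5, STAR 2.5.3a, StringTie 1.3.1c and DESeq2 1.16.1. The annotation, the counting tool and any use of strand were not given in the sources used here. Full-length cDNA was amplified before library construction, per the labels' protocols, without molecular identifiers. CPM were computed from the deposited total counts, which ran from 29107326 to 53044907. Groups came from the sample titles, and 0 columns were left without a sample.

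Allograft and naive libraries were compared with edgeR 4.0.16 (R 4.3.3): TMM, filterByExpr, quasi-likelihood fit and Benjamini-Hochberg adjustment over 17015 genes at 0.05. The SE is the log2 fold change divided by the root of F. Alternatives used DESeq2 1.42.0 (its test or its size factors), limma 3.58.1 on log2(FPKM + 1) or log2(FPKM + 0.1), no filter, a mean of at least 50 counts, a replicate block, or 1 library left out. The members, lists and rules were chosen with earlier results of these data known. Named were all 8 members, in each role up to 3 tested genes with the smallest unadjusted p, and the 5 genes most like Hes1 in each ranking. Other genes named (Dll3, Dll4, Hes2, Hes3, Hes5, Hes6, Nrarp, Itch and the markers) were chosen after their values were seen. Gene positions are those of GENCODE M21 (GRCm38), the build named as mm10.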

Additional observations from a re-analysis of the deposited data

Results flagged for a closer look

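In the 4 allograft libraries, 44 values (the 8 genes, 25 named pathway genes and 11 marker sums) were examined for a single library far from the other 3, and 4 stood apart. Chance gives about 1 in 20, or 2.20. None of the 8 members was among them. Notch3 had 5.463 CPM in allograft replicate 4, against 1.73 to 2.16 CPM in the other allografts. Aph1a had 7.636 CPM in allograft replicate 3, against 4.94 to 5.33 CPM. Allograft replicate 2 was low for Tcf7, at 21.54 CPM where the others had 43.9 to 48.2 CPM. Allograft replicate 1 was high for the myeloid marker sum, at 327.6 CPM where the others had 205 to 222 CPM.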

How the results depend on the processing

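The number of genes past the threshold (6 with all libraries) was 1224 with DESeq2's test, 76 and 201 with limma on log2(FPKM + 1) and log2(FPKM + 0.1), 0 with the replicate block, and 0 to 560 with 1 library left out. Leaving out naive replicate 1 gave 107, naive replicate 2 gave 560, naive replicate 3 gave 7, and each allograft library 0 (848 to 1074 at an unadjusted p under 0.05; 478 with the block). For the wider pathway list (0 of 61 genes) it was 3 with DESeq2's test, 1 and 1 with limma, 0 with the replicate block, and 0 to 2 with 1 library left out, 2 being the value without naive replicate 2. No pairing by replicate number was seen. Same-numbered naive and allograft libraries had correlations of their deviations from the group means of 0.02, -0.02 and 0.04. Those of differently numbered libraries ran from -0.09 to 0.08. Whether libraries shared a batch was not tested. The 8 members kept the value of their fold within its SE in 107 of 112 comparisons, where the SE was often larger than the fold. The sign still changed in 3 of 14 alternatives for Jag1, 2 for Notch1, 5 for Notch2, 2 for Adam10 and 3 for Maml1. It changed in 0 of them for Rbpj and Hes1. For Dtx1, with 0 counts in each naive library, the sign could not change, so nothing is read from it. Of the 343 comparisons for named pathway genes, 14 had the other sign and 7 passed where the edgeR test had not. With 1 library left out, the log2 fold ran from -0.94 to 9.51 for Jag2, -0.49 to 9.82 for Notch3, -3.31 to 5.95 for Heyl, -1.62 to 7.44 for Hey2 and -2.98 to 0.028 for Ccnd1, the upper end being each time the omission of naive replicate 2. For the first 4 genes that end was fitted against 0 counts and is no bound. With the replicate block the log2 fold was 6.44 for Jag2, 0.59 for Heyl and 0.57 for Hey2. With limma it was 0.078 (pseudocount 1) and 0.86 (pseudocount 0.1) for Jag2 and 0.041 (pseudocount 0.1) for Hey2. For Notch3 it was -0.31 with DESeq2 size factors and turned negative when naive replicate 1, naive replicate 3 or allograft replicate 4 was left out. The cause of these differences was not tested. Scaling by TMM factors, the use of FPKM and the omission of naive replicate 2 for the overlap of the groups were added after seeing the data. Genes under about 3 counts per library cannot be told from 0 at this depth.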
